A study of Mus musculus with 6 samples.

Results

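The AP-1 genes Fos, Fosb, Fosl2, Jun, Junb, Jund and Atf3 were read in tumour CD8 T cells sorted by the presence or absence of Eomes, and no member differed between the fractions beyond the spread between arrays of one fraction. The members were taken as every probe set (a group of short array probes for one transcript) that the platform annotation gives to one of these 7 genes. This gave 10 probe sets of 45037 on the array, for 7 of 18193 annotated genes. Fosl2, Jun and Jund had 2 probe sets each, and the other 4 genes had 1 each. All 10 lay above the filter on low signal, the 40th percentile of their own array, on all 6 arrays, so every member was tested.

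The cells were sorted from tumours of the mouse fibrosarcoma line MCA-205, transplanted into male C57BL/6 Eomes-GFP mice, in which green fluorescent protein reports activity of the Eomes gene. All mice of both groups received 250 ug of aOX40 (days 12 and 16) and 200 ug of aCTLA-4 (days 12, 14 and 16), antibodies to the costimulatory receptor OX40 and the inhibitory receptor CTLA-4, starting once a tumour covered 50 to 80 mm2. Tumours were taken on day 19 after implantation. GFP-positive (Eomes+, n = 3) and GFP-negative (Eomes-, n = 3) CD8 T cells were hybridised to separate arrays. The design names 3 independent experiments, but no label ties an array to an animal or to an experiment, so a p-value here reflects how far these samples spread, which may be technical. Age is not given, and no untreated mice were analysed here.

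AP-1 is a dimer of basic leucine zipper proteins, built from a Fos and a Jun protein or from 2 Jun proteins, and it binds the sequence TGANTCA. In T cells, receptor signalling through MAP kinases induces Fos and Jun within minutes, and AP-1 then joins NFAT on the promoters of Il2 and other cytokine genes. NFAT acting with little AP-1 is linked to unresponsive and exhausted T cells, while Atf3, a relative that pairs with Jun proteins, is induced by cell stress.

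The promoters of 4 members are shown because these genes, Fos, Fosb, Jun and Atf3, had their highest signals on the same arrays in the results that follow. The sequences are from RefSeq (GRCm38.p6), which matched all 7 members, and each holds the 120 bases before the annotated start, read 5′ to 3′ on the gene's strand. They lie at chr12:85473770-85473889 (+) for Fos, chr7:19310046-19310165 (-) for Fosb, chr4:95052223-95052342 (-) for Jun and chr1:191183334-191183453 (-) for Atf3. Capitals mark TGACG, the first 5 bases of the cyclic AMP response element TGACGTCA, or TGACATCA, a variant of that element, on either strand.
Fos: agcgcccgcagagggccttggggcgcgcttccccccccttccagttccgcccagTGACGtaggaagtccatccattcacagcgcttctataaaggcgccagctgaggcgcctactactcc
Fosb: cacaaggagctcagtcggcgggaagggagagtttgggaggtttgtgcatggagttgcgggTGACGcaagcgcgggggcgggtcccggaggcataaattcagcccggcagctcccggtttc
Jun: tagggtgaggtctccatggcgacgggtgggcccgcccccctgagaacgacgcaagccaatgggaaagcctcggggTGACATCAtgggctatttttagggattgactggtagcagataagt
Atf3: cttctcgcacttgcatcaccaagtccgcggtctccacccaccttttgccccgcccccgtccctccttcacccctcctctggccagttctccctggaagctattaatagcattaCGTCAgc
TGACG began 66 bases before the start in Fos and 60 bases before it in Fosb. In Atf3 it stood on the opposite strand, 7 bases before the start, and Junb also held it, 106 bases before the start. Of 32851 promoter windows of this length in the table, 11.7% held TGACG on either strand. TGACATCA, present in Jun 45 bases before the start, was in 2.1% of windows. The AP-1 element TGANTCA was in 0 of the 7 members' windows and in 3.41% of all windows, and the full element TGACGTCA was in 0 of 7 and 1.24%. The windows of Fosl2 and Jund held none of these sequences. These matches describe letters in a window and not binding.

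Fos, the best-known immediate early partner of Jun, had log2 signals of 12.04, 12.00 and 12.45 on Eomes+ arrays 1, 2 and 3 and of 11.71, 11.79 and 12.54 on Eomes- arrays 1, 2 and 3. The array numbered 3 was the highest of both fractions, and the fractions overlapped. The mean difference, Eomes+ minus Eomes-, was 0.15 log2 (SE 0.25; limma adjusted p = 1.00), a 1.11-fold ratio with a 95% interval from 0.734 to 1.67. A larger ratio than that upper bound lies outside the interval.

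Fosb encodes a Fos protein that is also induced within minutes. It gave 10.48, 10.09 and 10.95 log2 on Eomes+ arrays 1 to 3 and 9.91, 10.37 and 11.13 on Eomes- arrays 1 to 3. Again both arrays numbered 3 were above the other 4, and the means of the fractions lay 0.03 log2 apart (SE 0.36; limma adjusted p = 1.00). Fosl2 encodes Fra-2, a Fos relative that appears later and lasts longer after stimulation. Its probe set 1437247_at read 11.02, 11.07 and 10.94 log2 in Eomes+ and 11.15, 11.08 and 10.72 in Eomes-, a difference of 0.03 log2 (SE 0.17; limma adjusted p = 1.00). Its other probe set, 1422931_at, read 9.75, 9.44 and 9.40 in Eomes+ and 9.74, 9.80 and 9.25 in Eomes-, a difference of -0.07 log2 (SE 0.24; limma adjusted p = 1.00). On both Fosl2 probe sets the pair of arrays numbered 3 was the lowest, the reverse of Fos and Fosb.

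Jun, the main activating partner of Fos, was measured by 2 probe sets with like profiles. Probe set 1417409_at read 12.05, 12.30 and 13.07 log2 on Eomes+ arrays 1 to 3 and 11.85, 12.12 and 13.04 on Eomes- arrays 1 to 3. On this probe set the arrays numbered 1 were the lowest pair and those numbered 3 the highest, whichever the fraction. The difference between fractions was 0.13 log2 (SE 0.37; limma adjusted p = 1.00), with a 95% interval of the ratio from 0.591 to 2.03. Probe set 1448694_at read 10.53, 10.74 and 11.39 in Eomes+ and 10.33, 10.39 and 11.60 in Eomes-, with a difference of 0.12 log2 (SE 0.40; limma adjusted p = 1.00). Between arrays of one fraction, Jun signal therefore varied by up to 2.28-fold on the first probe set and 2.42-fold on the second, against ratios of 1.09 and 1.08 between the fractions.

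Junb and Jund encode the other Jun proteins, which are weaker activators and can restrain Jun. Junb read 8.99, 8.60 and 8.49 log2 in Eomes+ and 9.08, 9.05 and 8.72 in Eomes-. Its mean was 0.26 log2 below that of Eomes-, at 8.69 ± 0.27 against 8.95 ± 0.20 (SD, n = 3 each), and the fractions overlapped because Eomes+ array 1 lay above Eomes- array 3 (difference -0.26 log2, SE 0.25; limma adjusted p = 1.00). Jund probe set 1449117_at read 12.91, 12.51 and 12.58 in Eomes+ and 12.98, 12.78 and 12.60 in Eomes-. It had the narrowest interval of the 10 probe sets, with a difference of -0.12 log2 (SE 0.15; limma adjusted p = 1.00) and a ratio between 0.721 and 1.18. Jund probe set 1440265_at gave the largest difference among the 10 in the fit of all 6 arrays without a covariate, -0.42 log2 (SE 0.36; limma adjusted p = 1.00). It was -0.18 without Eomes- replicate 1, where Atf3 (-0.65) was further from 0, and -0.76 without Eomes- replicate 3. With the covariate used below it was -0.32, and Atf3 (-0.53) was again further from 0. Jund 1440265_at read 7.24, 7.09 and 6.86 in Eomes+ and 7.98, 7.66 and 6.81 in Eomes-, so that the overlap came from Eomes- array 3, the lowest of the 6.

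Atf3 varied most between arrays. It read 8.10, 8.69 and 10.18 log2 on Eomes+ arrays 1 to 3 and 8.55, 8.84 and 10.44 on Eomes- arrays 1 to 3. Both arrays numbered 3 stood over 1 log2 above every other array, and the arrays of Eomes+ spanned a 4.24-fold range. Atf3 was at 8.99 ± 1.07 in Eomes+ against 9.27 ± 1.02 in Eomes- (SD, n = 3 each), a difference of -0.28 log2 (SE 0.69; limma adjusted p = 1.00). Its interval, a ratio from 0.265 to 2.55, was the widest of the family, and 92.3% of the probe sets tested had a smaller spread within the fractions.

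**Figure D1:**
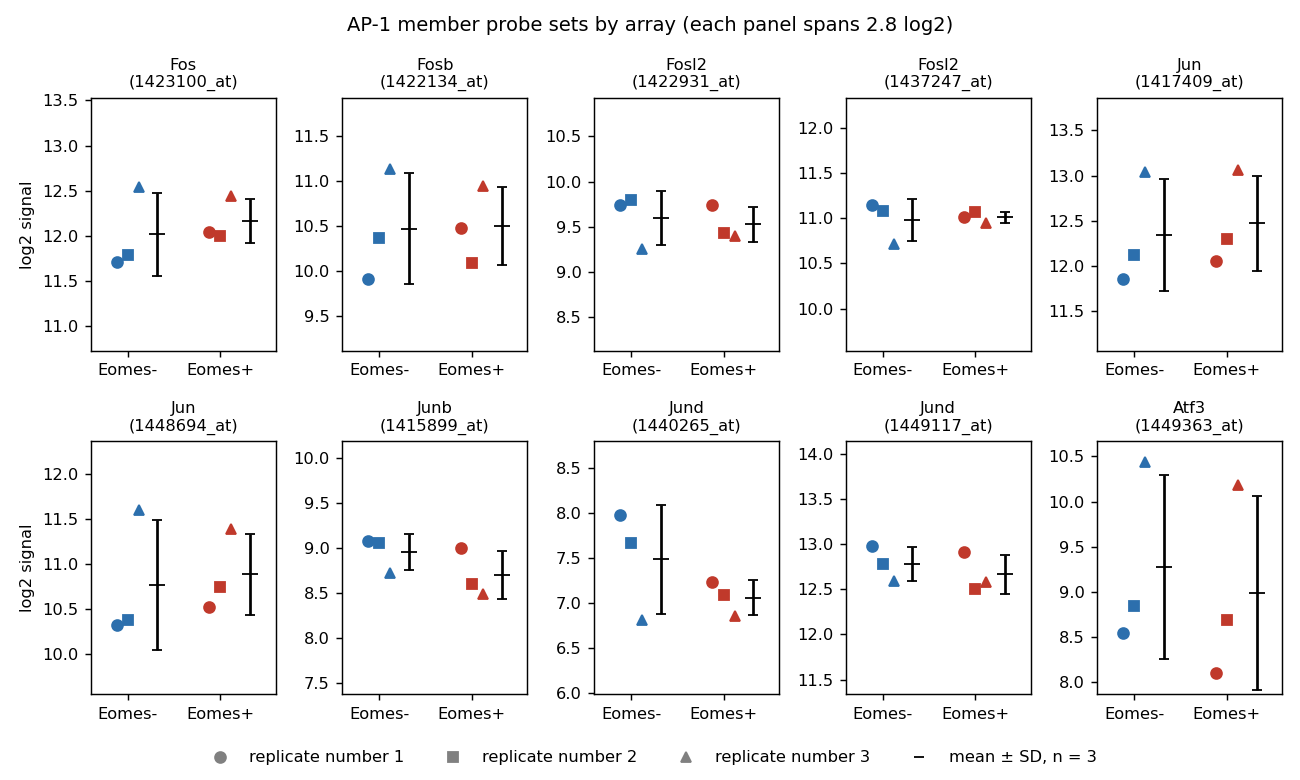
Log2 signal of each of the 10 AP-1 probe sets on the 3 Eomes- (blue) and 3 Eomes+ (red) arrays, with marker shapes for the replicate number and black bars for the mean ± SD (n = 3). All panels have the same span on a log2 axis, and triangles (arrays numbered 3) are highest in both fractions for Fos, Fosb, both Jun probe sets and Atf3.

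Over the family, 0 of 10 probe sets passed limma's test at an adjusted p under 0.05 and 0 had an unadjusted p under 0.05. Over all 27766 probe sets tested 0% passed, and 3.37% (936) had an unadjusted p under 0.05, so none among 10 is near the background. The fractions overlapped on all 10, whereas they did not overlap on 8.06% of all probe sets. Of the 10, 5 had a higher and 5 a lower mean in Eomes+, with a median difference of -0.02 log2, the same to 2 decimals as over all probe sets tested (-0.02). The median size of the difference, without its sign, was 0.12 log2 for the members and 0.20 for all probe sets tested. The widest range between arrays of one fraction exceeded the difference between fractions for 10 of 10 members and for 96.1% of all probe sets tested. Eomes itself, on which the cells were sorted, differed by 3.15 log2 (SE 0.63; limma adjusted p = 1.00, unadjusted p = 0.00175) with no overlap, so the adjusted test called nothing here, not even the sorted gene.

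Arrays can also be compared by the replicate number they carry, one of each fraction per number. Jun probe set 1417409_at was higher in Eomes+ within all 3 numbers, by 0.20, 0.17 and 0.02 log2. Atf3 was lower within all 3, by -0.45, -0.15 and -0.26 log2, as were Junb (-0.08, -0.45 and -0.24) and Jund probe set 1449117_at (-0.07, -0.27 and -0.01). The other 6 probe sets had both signs, among them Fos, at 0.33, 0.21 and -0.09 log2. The second Jun probe set differed by 0.20, 0.36 and -0.21 and the second Jund probe set by -0.74, -0.58 and 0.04, so neither gene kept one sign on both of its probe sets.

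**Figure D2:**
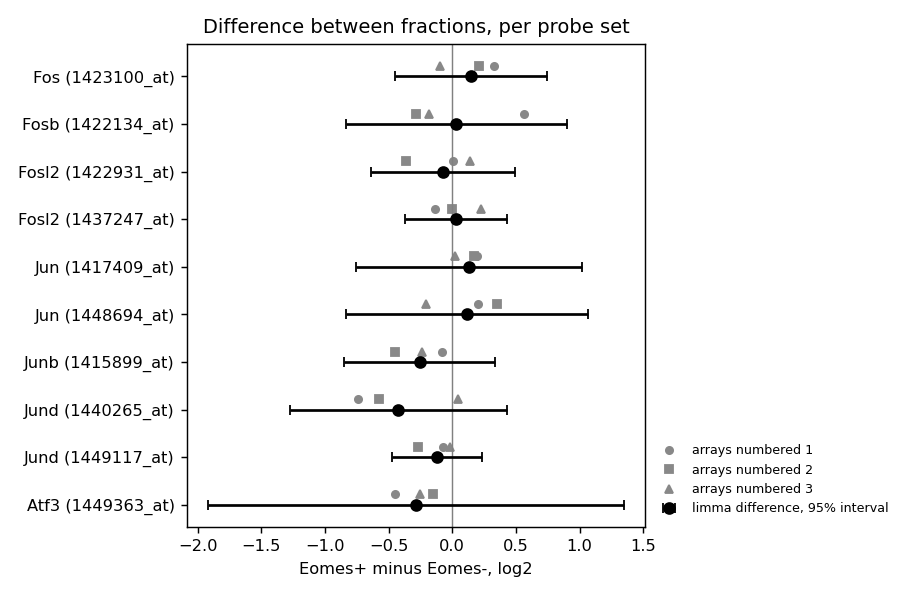
Eomes+ minus Eomes- difference in log2 for each AP-1 probe set, as the limma estimate with its 95% interval (black) and as the 3 differences between arrays of the same replicate number (grey). All 10 intervals include 0, and that of Atf3 is the widest, from -1.92 to 1.35.

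The members split by array rather than by fraction. On 5 of 10 probe sets (Fos, Fosb, both of Jun and Atf3) both arrays numbered 3 lay above all 4 others, where 18.3% of all probe sets tested did so. On 3 of 10 (both of Fosl2 and Jund 1440265_at) they lay below all 4 others, against 21.7% of all probe sets. Such separation by number was therefore common over the whole array. Both arrays numbered 1 were the lowest pair for Jun 1417409_at and Atf3 (12.9% of all probe sets) and the highest pair for Jund 1449117_at (15% of all), and those numbered 2 stood apart for 0 of 10, where 4.84% of all probe sets had them above and 4.69% below the others. These counts were chosen after the values were seen and carry no test.

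The level of RNA from other cells moved with these arrays. The mean of 14 tested macrophage markers was 8.61, 10.16 and 11.01 log2 on Eomes+ arrays 1 to 3 and 8.25, 9.34 and 10.94 on Eomes- arrays 1 to 3. That of 15 tumour and fibroblast markers was 9.38, 11.21 and 11.94 against 9.34, 10.38 and 12.03. The mean of 10 T cell receptor and CD8 markers ran the other way, at 12.09, 11.87 and 10.81 against 12.23, 12.23 and 10.94. Summed over its members, the macrophage list ranged from 13.86 to 15.60 log2 in Eomes+ and from 13.49 to 15.59 in Eomes-, and the tumour list from 14.41 to 16.22 and from 14.40 to 16.37. The tumour list holds Thy1 (named after its values were seen), which was lowest on the arrays numbered 3, as the T cell markers were. It read 13.17, 13.13 and 12.42 in Eomes+ and 13.33, 13.21 and 12.42 in Eomes-. Thy1 counts in the tumour mean, in these sums and in the covariate used below, so none of them is free of it. Of the 14 macrophage markers, from 12 to 14 lay above the filter level, depending on the array. All 15 tumour markers lay above it on every array. Csf1r, the macrophage growth factor receptor, lay between 9.28 and 12.70 log2 and Col1a1, a collagen chain of fibroblasts, between 10.01 and 13.07. Cd3e and Cd8a, which define the labelled cells, were present on every array, at 11.78 log2 or more and 11.95 or more. Of the macrophage markers 14 of 14, and of the tumour markers 13 of 15, had both arrays numbered 3 above the other 4. In bulk RNA, fewer cells of a type and less RNA per cell cannot be told apart.

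With the mean of the macrophage and tumour markers as a covariate, the standard error of the Jun 1417409_at difference was 0.14 log2 in place of 0.37, and that of Atf3 was 0.29 in place of 0.69. The differences themselves became -0.01 log2 for Jun 1417409_at, so its sign turned, and -0.53 for Atf3, and neither passed (limma adjusted p = 0.994 and 0.643). Fos stood at 0.07 log2 in that fit (SE 0.14; limma adjusted p = 0.934), Junb at -0.20 (SE 0.19; limma adjusted p = 0.821) and Jund 1449117_at at -0.07 (SE 0.08; limma adjusted p = 0.852). With the replicate number as a block in place of the covariate, the standard errors were 0.07 log2 for Jun 1417409_at and 0.19 for Atf3. The marker means moved with the replicate number, so covariate and number cannot be told apart. How much of the AP-1 signal came from T cells was not tested.

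Immediate early and heat shock genes can also be induced while tissue is broken into single cells. The mean of 13 heat shock genes was 11.09, 11.11 and 11.54 log2 on Eomes+ arrays 1 to 3 and 11.15, 11.01 and 11.55 on Eomes- arrays 1 to 3, so it too was highest on the arrays numbered 3, and 8 of 13 genes had both of these arrays above the other 4 (21.6% of all genes tested did). Hspa1b, a stress-induced Hsp70 gene, was at 11.43, 10.77 and 11.61 against 11.29, 10.24 and 11.33, with number 2 lowest. Its part in the AP-1 values was not tested. RNA quality was read as the log2 ratio of the 3' to the 5' control probe set of Gapdh. It was 1.74 ± 0.17 in Eomes+ and 1.24 ± 0.26 in Eomes- (SD, n = 3), with p = 0.1 in a two-sided exact permutation test, where 3 against 3 goes no lower. By array it was 1.88, 1.77 and 1.55 in Eomes+ and 1.54, 1.07 and 1.11 in Eomes-. The same ratio for Actb was 0.08, 0.17 and 0.13 in Eomes+ and -0.0022, 0.05 and 0.11 in Eomes- (two-sided exact permutation p = 0.2). The part of RNA quality in the AP-1 values was not tested.

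**Figure D3:**
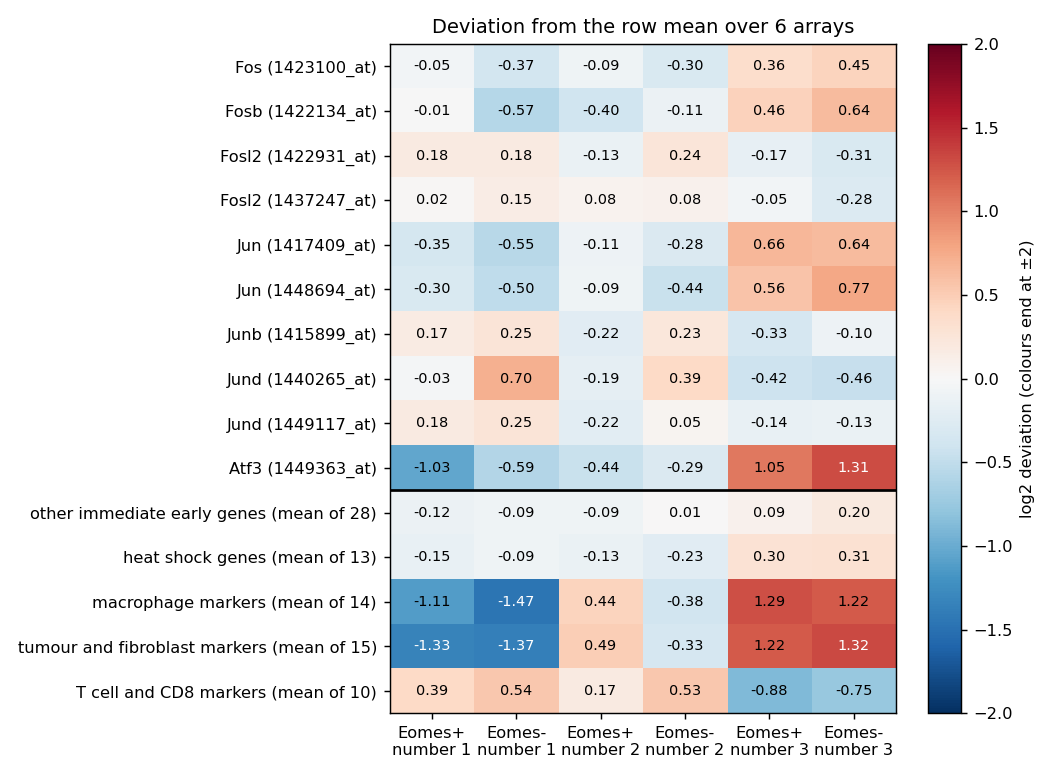
Deviation of each AP-1 probe set (above the line) and of the mean of each gene list (below it) from its own mean over the 6 arrays, in log2, with arrays ordered by replicate number. Both arrays numbered 3 are red for Fos, Fosb, Jun and Atf3 and for macrophage and tumour markers, and blue for T cell markers, Fosl2, Junb and Jund.

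Among 121 related genes tested in 6 lists, at 1 probe set each (the brightest), limma called 0 at an adjusted p under 0.05, as over all 12571 genes (0%), and 6 had an unadjusted p under 0.05, a share to set beside 3.25% of all genes. The fractions did not overlap for 8 of the 121, all lower in Eomes+, against 7.71% of all genes in either direction. Of all 12571 genes, 586 were lower and 383 higher in Eomes+ without overlap. In sum 47 had a higher and 74 a lower mean in Eomes+, against 5962 and 6609 over all genes.

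The other AP-1 and bZIP partners (27 of 28 tested) had 12 higher and 15 lower means and a median of -0.03 log2, against -0.02 over all genes. The lowest was Irf4, the factor that binds AP-1 sites together with Batf, at -1.78 log2 (SE 0.58; limma adjusted p = 1.00, unadjusted p = 0.0193). Its signals of 8.46, 8.01 and 6.60 in Eomes+ all lay below the 9.91, 9.84 and 8.66 of Eomes-. Batf, the Jun partner that lacks an activation domain, was at 9.54, 9.15 and 8.01 against 10.04, 10.28 and 8.84 (difference -0.82 log2, SE 0.53), with overlap. Both were lowest on the array numbered 3 of each fraction, the reverse of Fos and Jun. Nfil3, a bZIP factor of effector and innate lymphocytes, differed by -0.50 log2 (SE 0.17) without overlap, Irf8 by -0.87 (SE 0.39) and Crem, a cyclic AMP-responsive factor, by -0.88 (SE 0.49). Fosl1, which encodes Fra-1, read 8.50, 10.02 and 11.42 against 8.96, 9.66 and 11.62. It followed the arrays as Atf3 did, and its difference of -0.10 log2 (SE 0.92) had the opposite sign on its other probe set (0.52).

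Of the kinases and factors upstream of AP-1, 21 of 26 genes were tested, with 8 higher and 13 lower means and a median of -0.08 log2. Elk1, a ternary complex factor that switches on Fos with SRF, differed by -0.71 log2 (SE 0.24; limma adjusted p = 1.00, unadjusted p = 0.0244), but its other probe set stood at 0.21. Elk3, a related factor, differed by -0.35 (SE 0.15) and Map2k1, which encodes the ERK kinase MEK1, by -0.48 (SE 0.23), both without overlap, while Elk4 was at 0.35 (SE 0.24). Regulators of Fos and Jun turnover and activity (15 of 18 tested) had 6 higher and 9 lower means and a median of -0.05 log2. Fbxw7, a ubiquitin ligase subunit that targets Jun, was at -0.45 (SE 0.34), the ubiquitin ligase gene Itch at -0.20 (SE 0.23), with its other probe sets at 0.54 and -0.15, and the kinase gene Csnk2a1 at -0.28 (SE 0.20). Ncoa1, a coactivator gene, was at 0.28 (SE 0.23) and Zfp36, whose product destabilises short-lived mRNAs including Fos, at 0.03 (SE 0.23).

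Other immediate early genes (28 of 28 tested) had 12 higher and 16 lower means and a median of -0.08 log2. Egr1, which shares SRF control with Fos, read 10.95, 11.53 and 12.25 in Eomes+ and 11.13, 11.20 and 12.39 in Eomes-, a difference of 0.00 log2 (SE 0.45). Dusp1, the phosphatase that ends MAP kinase signals, differed by 0.05 (SE 0.15), Nr4a1 by -0.09 (SE 0.31), Ier2 by -0.23 (SE 0.32) and Egr2 by 0.36 (SE 0.25). Both arrays numbered 3 lay above the other 4 for 12 of 28 immediate early genes, among them Egr1, Dusp1, Nr4a1, Ier2 and Egr2, against 21.6% of all genes. They lay below the other 4 for 3 of 28 (Dusp2, Dusp5 and Btg1, named after their values were seen), against 2586 of all 12571 genes. Btg2, an antiproliferative gene, differed by -0.67 (SE 0.26; limma adjusted p = 1.00, unadjusted p = 0.0369) and Egr3 by -0.75 (SE 0.30; limma adjusted p = 1.00, unadjusted p = 0.0419), both without overlap. Nr4a2 was at -0.55 (SE 0.26), with its other probe sets from -0.97 to -0.16, and Nr4a3 at -0.19 (SE 0.41), with its others at -0.81 and -0.58. Klf2, a factor of quiescent and recirculating T cells, was at 0.62 (SE 0.35). Among heat shock genes (13 of 16 tested) 6 had a higher and 7 a lower mean, with a median of -0.07 log2. The 4 of smallest p were Hsph1 at -0.16 (SE 0.14), Dnaja1 at -0.10 (SE 0.11), Hspe1 at 0.10 (SE 0.11) and Hspa1b at 0.32 (SE 0.37). The Dnaja1 sign differed on 1 of its other probe sets (0.02).

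T cell genes often given as AP-1 targets (17 of 20 tested) had 3 higher and 14 lower means in Eomes+ and a median of -0.37 log2, against -0.02 over all genes, with 0 passing. The list also counts Ccnd1, Mmp9, Plaur and Timp1 (named after their values were seen). On these genes both arrays numbered 3 lay above all others, as on most macrophage and tumour markers. Their differences were 0.26, -0.10, -0.19 and -0.04 log2. Over the whole list, both arrays numbered 3 lay above all others for 4 of 17 genes and below them for 7. Of all 12571 genes, 2719 had these arrays above and 2586 below, and of the T cell receptor and CD8 markers 10 of 10 had them below. Cd44, the adhesion receptor of antigen-experienced T cells, was at 10.77, 11.29 and 11.14 in Eomes+ and 11.64, 11.95 and 11.76 in Eomes-, a difference of -0.71 log2 without overlap (SE 0.18; limma adjusted p = 1.00, unadjusted p = 0.0067). Il2, the classical NFAT and AP-1 target, read 5.53, 7.33 and 5.98 against 7.13, 10.30 and 7.78 (difference -2.12 log2, SE 0.89), the first value below the filter level of 5.71, and was highest on the arrays numbered 2, where Fos and Jun were not. Ccl4, a chemokine gene, differed by -1.04 (SE 0.44), Ifng by -1.02 (SE 0.63), Csf2 by -0.98 (SE 0.71) and Tnf by -0.37 (SE 0.33). Cd69, an early activation marker, was at 0.29 (SE 0.76) and the integrin gene Itgax, also expressed by dendritic cells and macrophages, at 0.81 (SE 0.40). The 4 probe sets of Cd44 had the same sign. Means of cell type markers also leaned by fraction. T cell receptor and CD8 markers had a lower mean in Eomes+ in 8 of 10 (median -0.14 log2) and CD4 and regulatory T cell markers in 4 of 5 (-0.28). Macrophage markers had a higher mean in 12 of 14 (0.31) and tumour markers in 14 of 15 (0.27), with 0 passing in each list. The fractions overlapped for every T cell receptor and CD8, macrophage and tumour marker tested. Of the CD4 and regulatory T cell markers, 1 of 5 (Cd40lg) was lower in Eomes+ without overlap, where 7.71% of all genes did not overlap. Markers of a list move together, so these counts are not independent. Within replicate numbers the tumour mean had both signs (at number 3, 11.94 in Eomes+ against 12.03 in Eomes-). The T cell and macrophage means kept the same sign throughout. Cd40lg, the CD40 ligand gene of CD4 T cells, differed by -1.70 log2 (SE 0.45). It did not reach the filter level on any Eomes+ array. In Eomes- it read 5.74, 7.56 and 6.38, highest on the array numbered 2 as Il2 was. Foxp3 was also highest on number 2 in both fractions. Cd4 was lowest there, at 7.16, 6.74 and 7.36 in Eomes+ and 7.29, 7.10 and 7.58 in Eomes-. Zbtb7b was highest on number 3, and Ikzf2, with a higher mean in Eomes+ (0.32 log2), on number 1. These CD4 list genes were named after their values were seen. The part of the cell type markers in the values of the AP-1 target list was not tested.

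**Figure D4:**
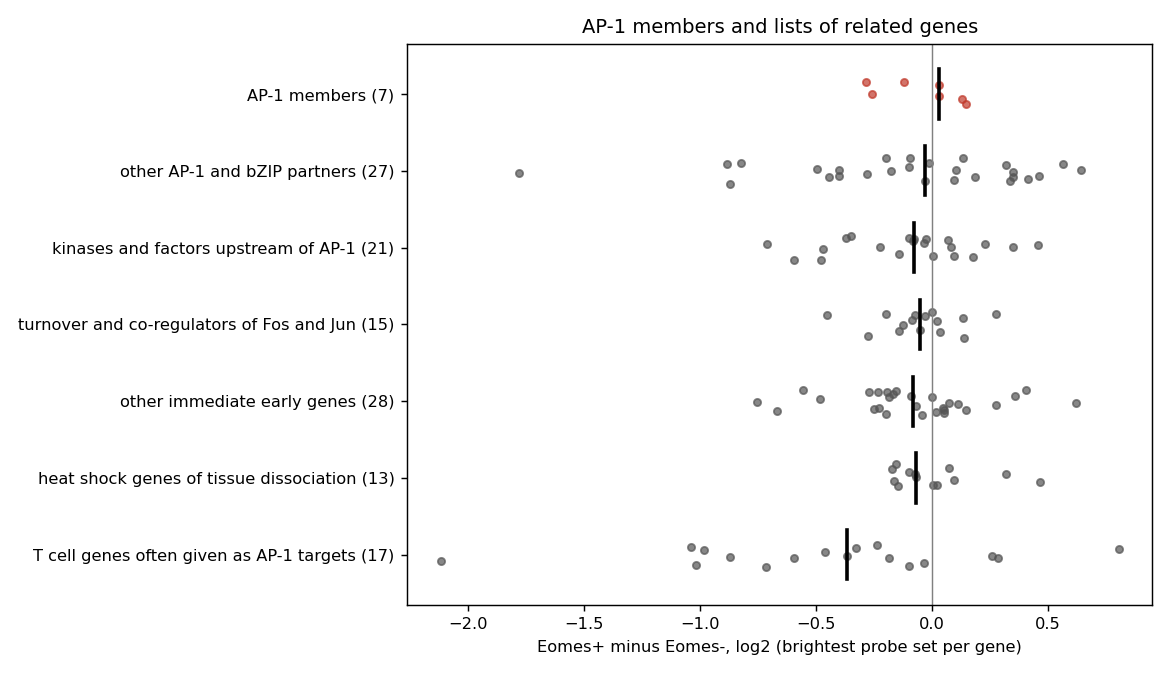
Eomes+ minus Eomes- difference in log2 of the AP-1 members (red) and of 6 lists of related genes (grey), 1 point per gene at its brightest probe set, with the number tested in parentheses and a bar at the median. The AP-1 members lie between -0.28 and 0.15, and the list of T cell genes often given as AP-1 targets has the lowest median, -0.37.

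Over the 6 arrays, the mean of the members' brightest probe sets, each centred on its own mean, was -0.15, -0.20 and 0.29 log2 in Eomes+ and -0.20, -0.09 and 0.36 in Eomes-. The genes of most similar profile among 12564 were Laptm4a, which encodes a lysosomal membrane protein (Pearson r = 0.998), the Golgi mannosidase gene Man2a1 (0.996), the phospholipase gene Pla2g6, Uba3, Kitl (the ligand of the receptor KIT), Ttyh2, Rwdd4a, the ubiquitin ligase gene Smurf1, Hlf and Napa (0.989). These values describe 6 arrays whose profile is set largely by the arrays numbered 3, and they were picked as the highest of many. Without those arrays r was 0.998 for Laptm4a and 0.98 for Man2a1, and as low as 0.656 for Rwdd4a, over 4 arrays.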

How the data were processed

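The authors deposited log2 signals of 45101 probe sets for 6 arrays, from 1.68 to 14.95, and the scale was read from the values. The submitters' processing notes list MAS5 and Transcriptome Analysis Console with no role, so how probes were summarised is not stated. Array medians lay between 6.35 and 6.42, so a shift common to most genes would have been removed before deposit.

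Control probe sets (64) were left out. The platform annotation gives 1 gene for 34945 of the rest, several for 932 and lists none for 9160, and only the first kind were named. Symbols were updated through a RefSeq table (GRCm38.p6), which held 34741. The 27766 probe sets that exceeded the 40th percentile of 3 or more arrays entered a two-sided test in limma 3.58.1 (R 4.3.3; lmFit, then eBayes with a trend on intensity). Adjustment by Benjamini and Hochberg ran over all of these, at a threshold of 0.05, and the fit was tested on simulated data. The simulated noise was independent between arrays and the simulated differences were larger than those of the members. That check therefore does not cover shifts shared by same-numbered arrays or differences as small as those of the members. List genes stood at their brightest tested probe set in a fit of 12571 genes. Signals of different probe sets were not compared with each other. The number of arrays limits the precision.

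The members and lists were chosen with earlier results of these data known. Named were all member probe sets, Eomes, up to 4 genes of smallest p per list of related genes, a fixed set of T cell, immediate early and marker genes, and the 10 genes of most similar profile. List genes not counted as tested lay below the filter or were not analysed here. The 8 marker lists also covered the cells below. Tested B and plasma cell markers (3) had mean log2 levels of 5.88 to 6.40 over the arrays, neutrophil markers (2) 6.48 to 10.32, dendritic cell markers (3) 8.17 to 9.51, endothelial markers (4) 6.44 to 7.83, and CD4 and regulatory T cell markers (5) 7.26 to 8.05. Alternatives were a replicate block, other filters, a pseudocount of 32, quantile and median normalization, other variance models, array weights, a covariate for other cells' RNA, 1 probe set per gene and arrays left out.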

Additional observations from a re-analysis of the deposited data

How the results depend on the processing

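No AP-1 probe set passed in any of the settings tried, and the smallest adjusted p of a member was 0.176 (Jund 1440265_at, array weights). Over all probe sets array weights called 74 and the other settings 0, and Eomes passed with array weights (2.92 log2, limma adjusted p = 0.0446). Of 107 member values under settings that kept all arrays, 102 kept their sign. Those that turned were Fosb (-0.10 log2 with array weights, -0.067 with the covariate), Fosl2 1437247_at (-0.022 with array weights), Jun 1417409_at (-0.0068 with the covariate) and Jun 1448694_at (-0.021 with the covariate). The cause was not tested. With arrays left out, 18 of 90 values turned. Their ranges in log2 were -0.0034 to 0.41 for Fos, -0.25 to 0.36 for Fosb, -0.24 to 0.074 for Fosl2 1422931_at, -0.10 to 0.11 for Fosl2 1437247_at, -0.17 to 0.48 for Jun 1417409_at, -0.14 to 0.53 for Jun 1448694_at and -0.88 to 0.30 for Atf3. Junb (-0.41 to -0.15), Jund 1440265_at (-0.76 to -0.18) and Jund 1449117_at (-0.24 to -0.021) stayed below 0 in all settings tried, but their sizes moved by over 1.5 times with single arrays left out. The members' median lay between -0.15 (without Eomes+ replicate 3) and 0.10, and the Gapdh ratio difference between 0.41 and 0.64 log2.

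Same-numbered arrays had deviations that correlated at 0.665, 0.0949 and 0.691 over 27766 probe sets, so the numbers missed the rule for pairing at number 2, and the Eomes- array numbered 2 was closer to the Eomes+ array numbered 1 (0.372). With the replicate block limma called 0 probe sets over all (2748 at an unadjusted p under 0.05, against 936) and 0 members, whose smallest unadjusted p was 0.123 (Jun 1417409_at). Eomes stood at 3.15 log2 (limma adjusted p = 0.0708 with the block).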
